A study of Homo sapiens with 18 samples.

Results

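The comparison set a LATS1 hairpin with control plasmid against the plasmids labelled YAP/TAZ without a LATS hairpin, on 6 of the 18 arrays of the series. Arrays were chosen by title alone: 3 titled for the hairpin shLATS1B with control cDNA, and 3 titled for the non-targeting hairpin shNT with YAP/TAZ cDNA. All cells were MCF10A, a non-tumorigenic human cell line from mammary epithelium. Per the labels' protocols, every culture was infected with pLKO lentivirus at a multiplicity of 5, kept for 4 days under 1.5 µg/ml puromycin and rested for 7 days or more. Every culture was then transiently transfected with plasmid and kept for 5 days in M5, a medium with estrogen, so both groups carried a virus, a selection marker and a transfected plasmid. The shLATS1B arrays carried 1 named LATS1 hairpin, whose sequence the labels do not give. The YAP/TAZ arrays had no knockdown, and the labels state neither the form of the cDNAs nor the share of cells that took them up. No control array entered the difference. The 3 arrays with shNT and control cDNA are quoted only to place levels.

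In the Hippo pathway, the kinases STK3 and STK4 activate LATS1 and LATS2, which phosphorylate YAP and TAZ, co-activators encoded by YAP1 and WWTR1, and keep them out of the nucleus. Unphosphorylated YAP and TAZ bind the TEAD factors at genes such as CCN1 and CCN2, and in mammary epithelium the pathway is known for its part in growth control and in the balance of basal and luminal features. Loss of a LATS kinase and gain of YAP and TAZ are therefore often treated as alternative routes to the same output, and the arrays allowed the mRNA levels under both labels to be set side by side.

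Values are the deposited log2 intensities, 1 per array and gene, so a difference of 1 is a doubling, and levels of different genes are not compared. A gene was called changed at a Benjamini-Hochberg adjusted p under 0.05 over 18404 genes in limma's moderated test, fitted on all 18 arrays. Differences are shLATS1B minus YAP/TAZ cDNA with the standard error (SE) of that fit, and n is 3 arrays a group. A group mean under 5.21, the 30th percentile of gene means, is called dim, and no fold is given against it. Within-group correlations across probe sets were 0.993 to 0.998. On the first principal component, which held 47.3% of the variance, the shLATS1B arrays scored 16.3 to 18.2 and the YAP/TAZ arrays -15.9 to -14.0. The shLATS1+2 arrays and the arrays with YAP/TAZ plus ESR1 cDNA lay on the shLATS1B side, at 9.8 to 22.7. The ESR1 cDNA arrays and the control arrays lay on the YAP/TAZ side, at -23.0 to -10.3. The labels give no processing batch, and what separates the sides cannot be told apart from the groups compared here.

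The targeted kinase was lower in the hairpin arrays. LATS1 (probe set 8130116) stood at 7.81, 7.61 and 7.57 with shLATS1B, against 8.73, 8.86 and 8.79 with YAP/TAZ cDNA. The groups did not overlap, and the YAP/TAZ values lay near the 8.95, 8.80 and 8.81 of the control arrays. The log2 difference was -1.13 ± 0.078 (SE), a 2.19-fold lower level (limma, adjusted p = 1.8e-08). LATS2, the paralogous kinase, overlapped between the groups at 7.88, 7.86 and 7.87 against 7.90, 7.85 and 7.74. Its difference was 0.04 ± 0.063 (adjusted p = 0.77), with a 95% interval from -0.09 to 0.17.

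The co-activator label left no mark at its own probe sets. YAP1 stood at 10.86, 10.97 and 10.91 with shLATS1B, against 10.76, 10.80 and 10.82 in the YAP/TAZ-labelled arrays, with a 95% interval of the difference from -0.04 to 0.28 (limma, adjusted p = 0.34). The YAP1 control values of 10.88, 10.82 and 10.83 were no lower. WWTR1 stood at 10.03, 10.02 and 9.97 with shLATS1B, against 9.39, 9.47 and 9.47 in the YAP/TAZ-labelled arrays, a 1.48-fold higher level with the hairpin (0.56 ± 0.089, adjusted p = 0.00018). Control arrays held 9.73, 9.57 and 9.42 for WWTR1. Neither co-activator's probe set was thus higher in the arrays labelled as receiving its cDNA, and the label is used below as a label. The position of each probe set in its transcript was not analysed here, nor was the sequence carried by the plasmids. ESR1, which encodes estrogen receptor alpha and was transfected in neither group, stood at 6.47, 6.39 and 6.25 with shLATS1B, against 5.77, 5.83 and 5.60 with YAP/TAZ cDNA, a difference of 0.64 ± 0.081 (adjusted p = 1.9e-05).

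Of the 18404 genes, 3462 changed (18.8%): 1967 were higher with shLATS1B (10.7%) and 1495 were lower (8.12%). A difference of at least 1.5-fold was reached by 693 called genes (3.77%), 407 higher (2.21%) and 286 lower (1.55%). At 2-fold or more there were 120 higher and 89 lower genes, and at 4-fold or more 16 and 18. Called genes were higher in 56.8% of cases as deposited and in 44.0% after each array was centred on its median, so the balance of directions depends on the scaling. The median difference over all genes was -0.004. For 16771 genes (91.1%) the 95% interval of the difference lay within 1.5-fold either way. These included 14677 of the 14942 uncalled genes, and the intervals of the other 265 uncalled genes reached further. The 3 arrays of each group did not overlap for 7439 genes (40.4%), with shLATS1B higher in 20.4% of all genes and lower in 20.0%.

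**Figure D1:**
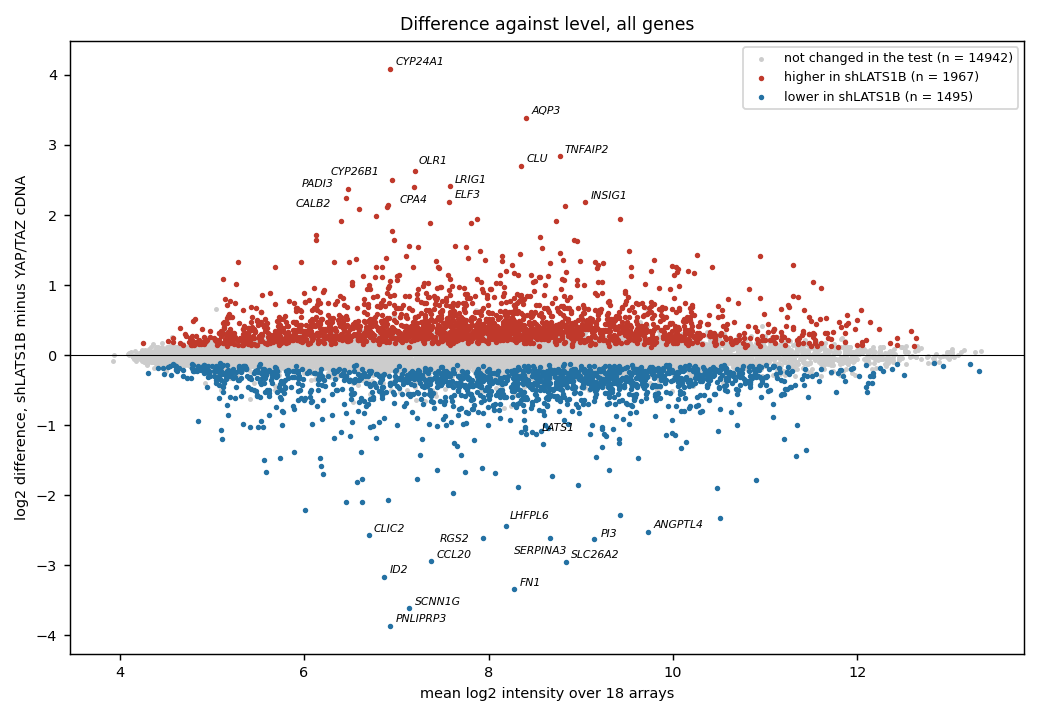
Each point is a gene, with its mean log2 intensity over 18 arrays across and its log2 difference, shLATS1B minus YAP/TAZ cDNA, upward. Red points are the 1967 called higher, blue the 1495 called lower and grey the 14942 uncalled; CYP24A1 lies highest at 4.09, the 12 largest falls lie between -3.86 and -2.44, and LATS1 lies at -1.13.

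The largest rises were an enzyme that degrades vitamin D hormone and a water channel. CYP24A1, the vitamin D 24-hydroxylase, stood at 8.94, 9.05 and 9.41 with shLATS1B, against a dim 5.12, 4.97 and 5.03 with YAP/TAZ cDNA. The difference was 4.09 ± 0.10 on the log2 scale (limma, adjusted p = 4.3e-14). AQP3, a channel for water and glycerol, stood at 10.09, 10.20 and 10.05, against 6.73, 6.71 and 6.72 with YAP/TAZ cDNA, a 10.5-fold higher level (adjusted p = 1.4e-14). In both genes the YAP/TAZ arrays lay close to the control arrays, which held 4.81, 5.07 and 5.00 for CYP24A1 and 6.73, 6.53 and 6.53 for AQP3.

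TNFAIP2, a gene induced by tumour necrosis factor, stood at 10.34, 10.41 and 10.38 with shLATS1B, against 7.41, 7.56 and 7.63 with YAP/TAZ cDNA, a 7.18-fold difference. CLU, the secreted chaperone clusterin, stood at 9.68, 9.70 and 9.53 against 6.95, 6.88 and 6.99, a 6.49-fold difference. OLR1, a receptor for oxidised low-density lipoprotein, spread more within the hairpin arrays, at 8.65, 8.35 and 8.09, against 5.75, 5.71 and 5.73. All 3 hairpin arrays still lay above all 3 YAP/TAZ arrays for each of these genes. LRIG1, which restrains receptors of the EGF family, stood at 9.0, 9.05 and 9.07 against 6.70, 6.60 and 6.60, a 5.30-fold difference (2.41 ± 0.10, adjusted p = 4.6e-11). CYP26B1, which degrades retinoic acid, was 5.64-fold higher with shLATS1B. CPA4, a carboxypeptidase, was 5.28-fold higher, PADI3, which converts arginine to citrulline in proteins, 5.19-fold, and CALB2, the calcium-binding protein calretinin, 4.75-fold. ELF3, an epithelial ETS factor, stood at 8.73, 8.58 and 8.73 with shLATS1B, against 6.59, 6.44 and 6.43 with YAP/TAZ cDNA, a 4.57-fold difference.

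The largest falls took in a lipase-like protein, a sodium channel subunit and a matrix protein. PNLIPRP3, a relative of pancreatic lipase, was dim with shLATS1B at 4.74, 4.76 and 4.62, against 8.68, 8.56 and 8.47 with YAP/TAZ cDNA (-3.86 ± 0.15, limma adjusted p = 3.1e-11). SCNN1G, the gamma subunit of the epithelial sodium channel, stood at 5.28, 5.27 and 5.35 with shLATS1B, against 8.80, 9.04 and 8.88 with YAP/TAZ cDNA. This was a 12.2-fold lower level (-3.61 ± 0.096, adjusted p = 1.2e-13), and the 8.80, 8.65 and 8.70 of the control arrays were near the YAP/TAZ values. FN1, fibronectin, stood at 6.72, 6.87 and 6.83 against 10.08, 10.17 and 10.21, a 10.1-fold lower level (adjusted p = 1.7e-13). The control arrays, at 8.80, 8.38 and 8.52, lay between the groups for FN1. The same order held for ID2, an inhibitor of helix-loop-helix factors, at 5.47, 5.39 and 5.36 with shLATS1B, against 8.66, 8.43 and 8.59 with YAP/TAZ cDNA and 7.52, 7.45 and 6.75 in control arrays.

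Among the other falls, SLC26A2, a sulfate transporter, stood at 7.46, 7.46 and 7.48 with shLATS1B, against 10.37, 10.46 and 10.41 with YAP/TAZ cDNA, 7.71-fold lower. CCL20, a chemokine for cells with the receptor CCR6, stood at 6.20, 5.84 and 5.98 against 9.06, 8.81 and 8.98, 7.68-fold lower (-2.94 ± 0.19, limma adjusted p = 1.1e-08). PI3, the protease inhibitor elafin, stood at 7.88, 7.86 and 7.80 against 10.49, 10.35 and 10.54, 6.13-fold lower. For these genes too the groups stood apart. SERPINA3, the secreted inhibitor antichymotrypsin, was 6.12-fold lower with shLATS1B, and RGS2, a regulator of G protein signalling, 6.11-fold lower. ANGPTL4, a secreted inhibitor of lipoprotein lipase, had the tightest values of this set, at 8.64, 8.66 and 8.63 with shLATS1B against 11.17, 11.17 and 11.15 with YAP/TAZ cDNA. LHFPL6, a membrane protein, was 5.41-fold lower, and CLIC2, an intracellular channel protein that was dim with shLATS1B, differed by -2.57 ± 0.11.

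**Figure D2:**
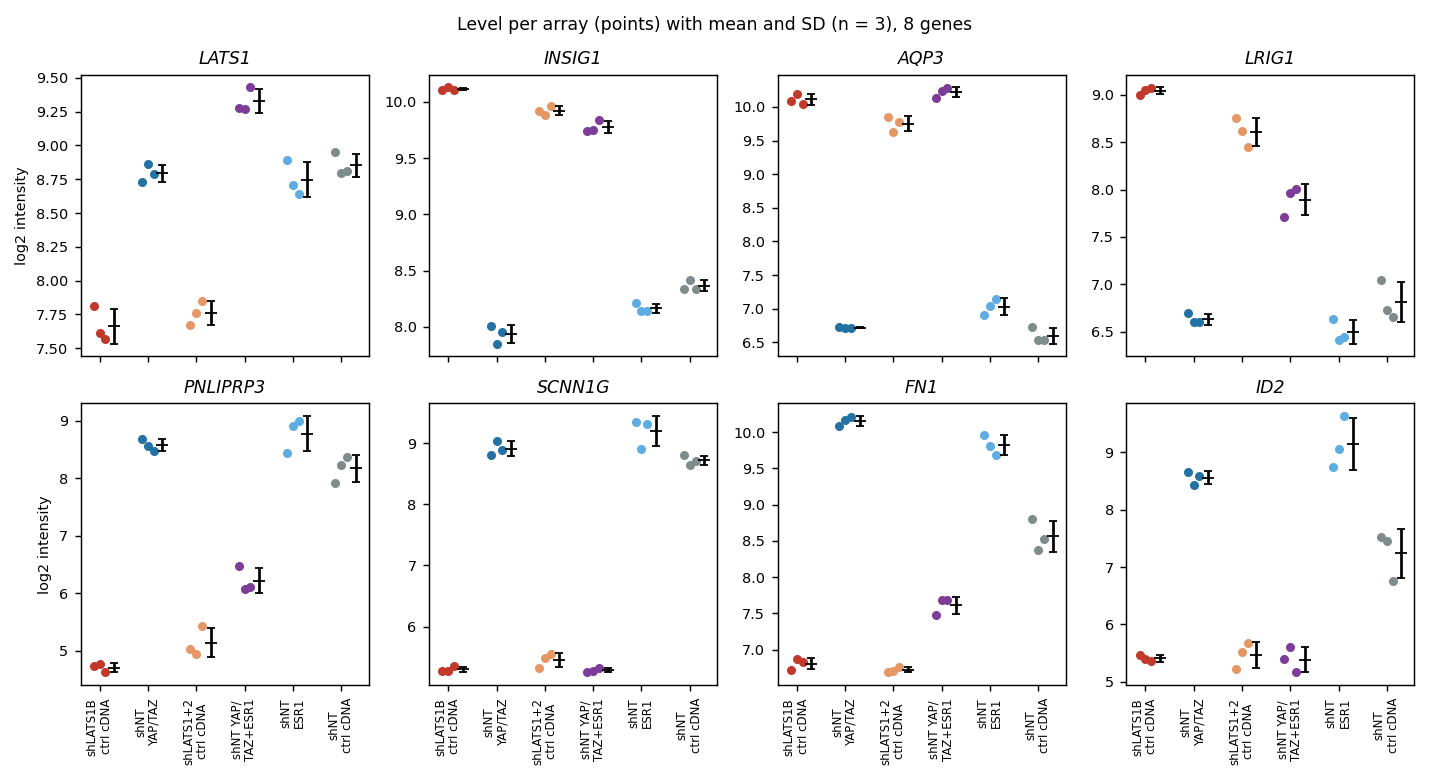
Log2 intensity (vertical axes) on each of 18 arrays is plotted by group (horizontal axes) for 8 genes, with points for arrays and the mean and SD (n = 3) beside them. LATS1 is low in both hairpin groups, while INSIG1, AQP3, PNLIPRP3 and SCNN1G also part the arrays with YAP/TAZ plus ESR1 cDNA, which carried no LATS hairpin, from the control arrays.

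Beyond LATS1 itself, the called differences among upstream Hippo components were each under 1.5-fold. Of 25 measured kinases, scaffolds and inputs, 1 was higher (4.0%) and 5 were lower (20.0%) with shLATS1B, LATS1 included. Over all genes these shares were 10.7% and 8.12%. An interval within 1.5-fold was found for 22 of the 25, against 91.1% of all genes. FAT4, an atypical cadherin, was 1.41-fold lower (-0.49 ± 0.060), and the kinase STK3 stood at 8.35, 8.34 and 8.36 against 8.59, 8.59 and 8.67 (-0.27 ± 0.079, limma adjusted p = 0.024). WWC1, the scaffold KIBRA, differed by -0.26 and MOB1A, a LATS cofactor, by -0.16, while the phosphatase PTPN14 differed by 0.36. Without any 1 array other than YAP/TAZ array 2, the lower members came to 2 or 3 and the higher members to 0. Among the 10 TEAD and VGLL genes and co-activators, 3 were higher and 2 lower. The largest was VGLL3, a TEAD cofactor, at 7.76, 7.94 and 7.74 against 8.87, 8.84 and 8.88, a 2.07-fold lower level. TEAD2 differed by 0.39, TEAD3 by 0.24 and TEAD4 by -0.22.

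The 23 measured YAP/TAZ target genes split evenly by direction, with 7 higher (30.4%) and 7 lower (30.4%), against 10.7% and 8.12% of all genes. Both shares thus lay above those of all genes, and the median difference was 0.01. CCN2, a matricellular protein and a reference target, stood at 8.36, 8.19 and 8.23 with shLATS1B, against 8.90, 8.84 and 8.79 with YAP/TAZ cDNA. It was 1.50-fold lower with the hairpin (-0.59 ± 0.071, limma adjusted p = 1.2e-05), and the control arrays, at 8.23, 8.19 and 8.33, overlapped the hairpin arrays. CCN1, its close relative, stood at 8.52, 8.52 and 8.54 against 8.87, 8.64 and 8.65 (-0.19 ± 0.088, adjusted p = 0.16), and both groups lay above the 7.49, 7.58 and 7.84 of the control arrays. NT5E, the ectonucleotidase CD73, fell most among the targets, to 9.37, 9.35 and 9.32 with shLATS1B, against 10.39, 10.48 and 10.49, a 2.16-fold difference. AJUBA, a LIM protein that binds LATS kinases, was 1.58-fold higher with shLATS1B (0.66 ± 0.085). The kinase gene NUAK2 was 1.35-fold higher and the receptor tyrosine kinase gene AXL 1.30-fold higher. MYOF, a membrane repair protein, did not pass the test, with a difference of 0.12 and an interval from -0.17 to 0.41. The count of higher targets was 4 under median centring and without any 1 array other than YAP/TAZ array 2, and without that array the count of lower targets was 4.

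The CCN2 promoter is shown because YAP and TAZ act on this gene through TEAD factors. Letters are RefSeq's (GRCh38.p14, chr6:131951323-131951622, minus strand), from 250 bases before to 50 after the gene's start, and capitals mark the TEAD motif GGAATG, searched on both strands.
CCN2: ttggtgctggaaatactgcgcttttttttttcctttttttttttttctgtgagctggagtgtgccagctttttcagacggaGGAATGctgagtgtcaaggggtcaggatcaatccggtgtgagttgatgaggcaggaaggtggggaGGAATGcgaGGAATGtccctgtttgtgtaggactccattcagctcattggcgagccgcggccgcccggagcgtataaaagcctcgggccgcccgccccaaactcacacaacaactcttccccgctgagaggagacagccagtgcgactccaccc
The motif occurred 3 times, 169, 104 and 95 bases before the start, and the last pair are close neighbours. Of the 17 target genes with a promoter in the RefSeq table, 7 held the motif in this window: CCN2, ANKRD1, NUAK2, PTPN14, FOXF2, TGFB2 and LATS2. The motif is short and occurred in 1655 of 14228 promoters (11.6%). Of the 7 matching targets 3 were called higher with shLATS1B, and 2, CCN2 and ANKRD1, were called lower.

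Sterol and fatty acid synthesis was the group with the largest median difference of the 26 lists. Of 22 measured genes 19 were higher with shLATS1B and 0 lower, against 10.7% and 8.12% of all genes, and 11 were higher by at least 1.5-fold. The median difference was 0.58, and the list mean per array lay at 10.01 to 10.03 with shLATS1B, against 9.34 to 9.38 with YAP/TAZ cDNA and 9.49 to 9.57 in control arrays. INSIG1, which holds the sterol sensor and its SREBP partner in the endoplasmic reticulum and is itself an SREBP target, stood at 10.11, 10.13 and 10.11 against 8.01, 7.85 and 7.95. The difference was 4.53-fold (2.18 ± 0.047, limma adjusted p = 1.4e-14). HMGCS1, which makes the precursor of mevalonate, stood at 10.92, 10.89 and 10.91 against 9.51, 9.51 and 9.40, a 2.70-fold difference. SCD, a stearoyl-CoA desaturase, was 2.42-fold higher, MVK, mevalonate kinase, 2.22-fold, and FASN, fatty acid synthase, 1.95-fold. The 3 uncalled genes were PMVK, NSDHL and SC5D, with differences of -0.04, 0.10 and -0.11.

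SREBF2 encodes the SREBP factor that drives sterol genes, and its own promoter held the only match to a sterol response element among the list. The gene averaged 9.24 ± 0.006 with shLATS1B and 8.56 ± 0.091 with YAP/TAZ cDNA (SD, n = 3 arrays each), a 1.60-fold difference (0.68 ± 0.094, limma adjusted p = 5.3e-05). It was chosen for this match after its values had been seen. Letters are RefSeq's (GRCh38.p14, chr22:41832855-41833154, plus strand), in the same window, and capitals mark TCACNCCAC, searched on both strands.
SREBF2: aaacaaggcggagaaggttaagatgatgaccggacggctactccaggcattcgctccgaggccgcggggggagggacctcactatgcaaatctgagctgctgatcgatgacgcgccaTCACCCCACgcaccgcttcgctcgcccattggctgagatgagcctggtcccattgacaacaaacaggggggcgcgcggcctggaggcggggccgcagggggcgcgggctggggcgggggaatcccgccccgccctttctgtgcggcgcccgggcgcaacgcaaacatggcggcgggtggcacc
The match lies 133 bases before the start. It was found in 1 of 20 sterol promoters and in 162 of 14228 promoters overall (1.14%), and for the other 19 sterol genes these letters are not in this window.

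**Figure D3:**
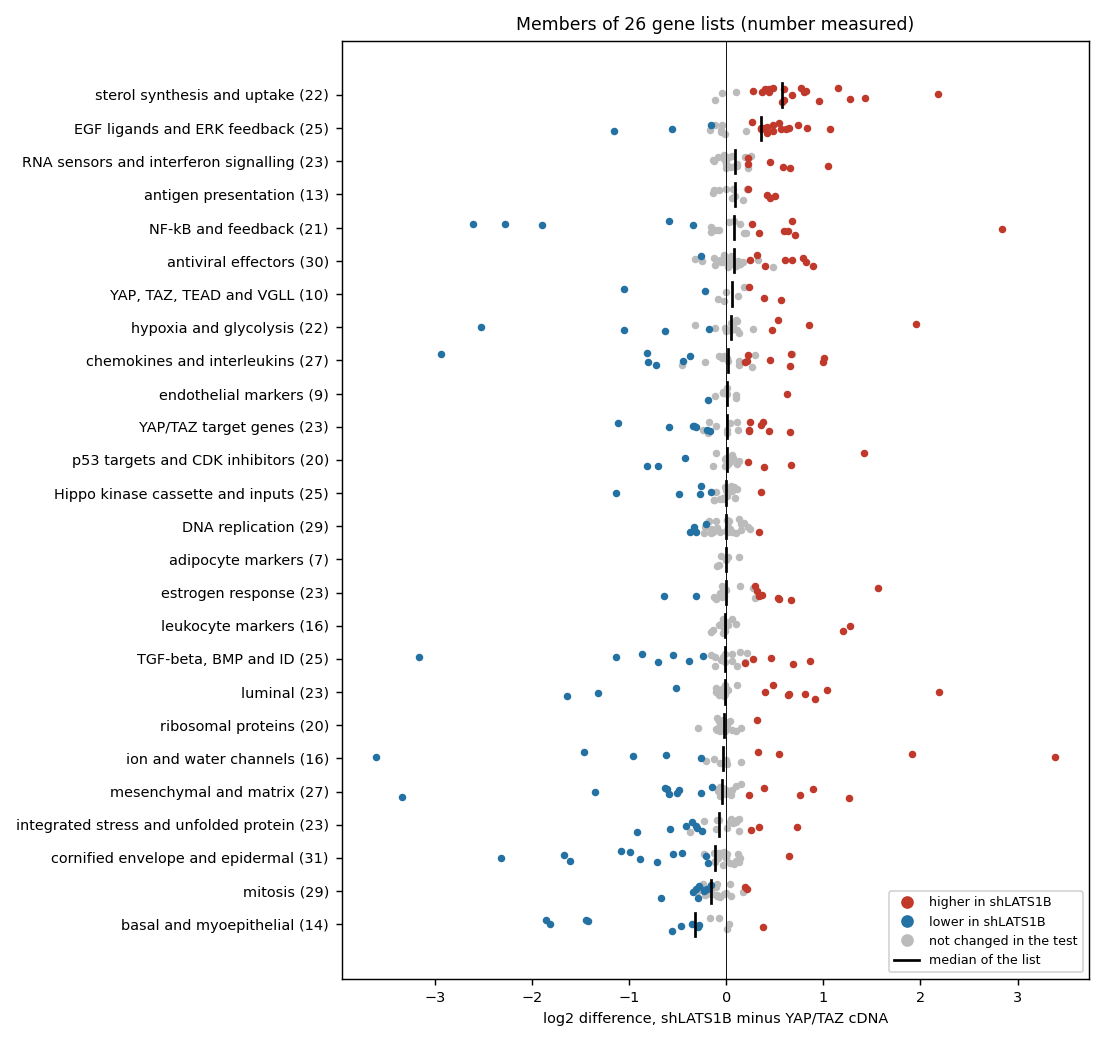
Each point is a measured member of 1 of 26 gene lists (rows, with the number measured), placed by its log2 difference, shLATS1B minus YAP/TAZ cDNA, on the horizontal axis. Red marks members called higher, blue called lower and grey uncalled; sterol genes lie mostly right of 0 (19 of 22 higher) and basal genes mostly left (9 of 14 lower).

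Genes of the EGF receptor and ERK pathway had the next largest median of the lists, 0.36, with 15 of 25 higher and 3 lower. Over all genes the shares called higher and lower were 10.7% and 8.12%, so it was mainly the higher members that exceeded them. DUSP4, a phosphatase that switches off ERK, stood at 9.56, 9.64 and 9.51 with shLATS1B, against 8.41, 8.56 and 8.52 with YAP/TAZ cDNA, a 2.10-fold difference. The ligand gene EREG stood at 10.08, 9.97 and 9.97 against 9.32, 9.21 and 9.26, a 1.67-fold difference, and HBEGF, another ligand, was 1.57-fold higher. IER3, an early response gene, was 1.78-fold higher. JUN, the AP-1 subunit, went the other way, at 6.11, 5.93 and 5.99 against 7.04, 7.25 and 7.20, a 2.23-fold lower level (-1.15 ± 0.068, limma adjusted p = 2.6e-09). LRIG1, the receptor antagonist described above, was not on the list.

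Basal and myoepithelial genes were lower in 9 of 14 cases (64.3%) and higher in 1 (7.14%), against 8.12% and 10.7% of all genes. The list median was -0.32. The 1 higher member, ACTA2, lost its call without any 1 of the 6 arrays and under median centring. KRT14, the basal keratin, stood at 8.08, 7.86 and 7.62 with shLATS1B, against 9.88, 9.53 and 9.69 with YAP/TAZ cDNA, a 3.60-fold lower level (-1.85 ± 0.14, limma adjusted p = 4.2e-08). Control arrays were higher still for KRT14, at 10.55, 10.51 and 10.23. SNAI2, a transcription factor of basal mammary cells, stood at 10.62, 10.52 and 10.57 against 12.04, 11.95 and 12.05, a 2.72-fold lower level. MME, the surface peptidase CD10, was 3.51-fold lower, TAGLN, an actin-binding protein of contractile cells, 2.68-fold, and LAMB3, a laminin chain, 1.48-fold. Of 23 luminal genes 8 were higher (34.8%) and 3 lower (13.0%), against 10.7% and 8.12% of all genes, with a median of -0.01 and a mean of 0.14. Their list mean per array was 7.67 to 7.69 with shLATS1B, against 7.51 to 7.56 with YAP/TAZ cDNA. The keratin KRT8 stood at 12.10, 12.23 and 12.18 against 11.11, 11.11 and 11.18, and FOXA1, a luminal transcription factor, was 1.87-fold higher. Against these, the mucin MUC1 stood at 8.29, 8.40 and 8.23 with shLATS1B and at 9.78, 10.01 and 10.03 with YAP/TAZ cDNA, 3.11-fold lower, and CD24, a surface glycoprotein, was 2.50-fold lower.

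Among 31 epidermal and cornified envelope genes, 11 were lower with shLATS1B (35.5%) and 1 was higher (3.23%), against 8.12% and 10.7% of all genes. S100A8, a calcium-binding protein of stressed epithelium, stood at 9.84, 9.35 and 9.5 against 11.99, 11.83 and 11.83, a 5.01-fold lower level, and its partner S100A9 was 1.99-fold lower. The control arrays, at 9.35, 9.70 and 10.25, overlapped the hairpin arrays for S100A8. TGM1, the transglutaminase that crosslinks the envelope, stood at 6.83, 6.76 and 6.81 against 8.56, 8.42 and 8.42, 3.18-fold lower. SPRR1B, an envelope precursor, was 3.06-fold lower and DSG3, a desmosomal cadherin, 2.11-fold lower. The matrix and mesenchymal list was mixed, with 5 of 27 higher (18.5%) and 9 lower (33.3%). Beside FN1, thrombospondin 1 (THBS1) was 2.55-fold lower, whereas SPARC, a secreted matrix glycoprotein, stood at 11.08, 11.15 and 11.10 against 9.90, 9.74 and 9.89, 2.40-fold higher. LOXL2, which crosslinks collagen, was 1.85-fold higher and tenascin C (TNC) 1.69-fold higher.

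Channel and transporter genes moved far in both directions, with 4 of 16 higher (25.0%) and 5 lower (31.2%), against 10.7% and 8.12% of all genes. Beside AQP3 and SCNN1G, the amino acid transporter SLC6A14 stood at 6.97, 7.26 and 7.11 with shLATS1B, against 5.26, 4.99 and 5.37 with YAP/TAZ cDNA (1.91 ± 0.11, limma adjusted p = 1.6e-09). The YAP/TAZ mean was dim. The potassium channel gene KCNJ15 was 2.75-fold lower with shLATS1B, and SGK1, a kinase that raises sodium channel activity, was 1.95-fold lower at 6.38, 6.41 and 6.41 against 7.46, 7.35 and 7.28. TGF-beta, BMP and ID genes were 5 of 25 higher (20.0%) and 7 lower (28.0%). ID2 led the falls, LTBP1, which anchors latent TGF-beta, was 2.19-fold lower, INHBA, an activin subunit, 1.83-fold, and ID3 differed by -0.70, while the co-receptor gene TGFBR3 was 1.81-fold higher.

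Inflammatory genes did not share a direction. Of 21 NF-kB genes 7 were higher (33.3%) and 5 lower (23.8%), against 10.7% and 8.12% of all genes. The list median was 0.08 and the list mean -0.07. Against TNFAIP2 and REL, an NF-kB subunit that was 1.63-fold higher, SAA1, SAA2 and SERPINA3, which encode acute-phase proteins, were lower. LCN2, another acute-phase gene of the list, was called higher with a difference of 0.60, and the complement genes C3 and CFB did not pass the test, with differences of -0.16 and 0.08. SAA1 stood at 8.20, 8.39 and 7.97 with shLATS1B, against 10.51, 10.44 and 10.46 with YAP/TAZ cDNA, a 4.87-fold lower level. SAA2 stood at 9.41, 9.48 and 9.42 against 11.38, 11.28 and 11.35, a 3.74-fold lower level. SAA1 and SAA2 are near-identical genes, so their probes may share signal. Of 27 chemokines and interleukins 8 were higher (29.6%) and 6 lower (22.2%). CXCL10, an interferon-induced chemokine, was 2.00-fold higher, and the cytokine genes IL18 and CSF3 were 1.76-fold and 1.74-fold lower. CXCL8, which attracts neutrophils, stood at 10.17, 9.95 and 9.78 against 9.38, 9.30 and 9.18 and did not pass the test (0.68 ± 0.27, limma adjusted p = 0.094).

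Antiviral genes had a list mean above that of the control arrays in both groups, as in every other group of the series. Of 30 effectors 8 were higher with shLATS1B (26.7%) and 1 was lower (3.33%), against 10.7% and 8.12% of all genes. A 95% interval within 1.5-fold was found for 24 of the 30, against 91.1% of all genes. The list mean per array was 9.33 to 9.44 with shLATS1B and 9.17 to 9.24 with YAP/TAZ cDNA, against 7.57 to 7.76 in control arrays, a comparison that was not tested here. It was 9.46 to 9.55 with shLATS1+2, 9.6 to 9.64 with ESR1 cDNA alone and 9.99 to 10.04 with YAP/TAZ plus ESR1 cDNA. The level above control was thus not particular to the 2 groups compared. IFIT2, which binds viral RNA complexes, had the largest difference, at 8.65, 8.75 and 8.64 with shLATS1B, against 7.78, 7.83 and 7.78 with YAP/TAZ cDNA (0.89 ± 0.081, limma adjusted p = 5.7e-07). In control arrays IFIT2 stood at 5.68, 5.79 and 5.54. HERC5, the ligase for the ubiquitin-like ISG15, was 1.77-fold higher with shLATS1B, OASL, which boosts RNA sensing, 1.72-fold, and RSAD2, viperin, 1.53-fold. The membrane protein gene IFITM1 overlapped, at 12.44, 12.43 and 12.37 against 12.33, 12.38 and 12.39, with an interval from -0.05 to 0.14, and control arrays held 9.74, 9.73 and 9.67. IFI6 averaged 13.08 ± 0.018 with shLATS1B and 13.13 ± 0.015 with YAP/TAZ cDNA (SD, n = 3 arrays each), which did not pass the limma test (adjusted p = 0.37).

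IFIT3 is given with its promoter because it was called higher and holds more than 1 interferon-stimulated response element. It stood at 9.25, 9.17 and 8.99 with shLATS1B, against 8.40, 8.47 and 8.5 with YAP/TAZ cDNA, a 1.60-fold difference (0.68 ± 0.14, limma adjusted p = 0.0018), and at 5.44, 6.11 and 6.14 in control arrays. Letters are RefSeq's (GRCh38.p14, chr10:89327747-89328046, plus strand), in the same window. Capitals mark GAAA, then NN (any bases), then GAAA, searched on both strands and here read on the opposite one.
IFIT3: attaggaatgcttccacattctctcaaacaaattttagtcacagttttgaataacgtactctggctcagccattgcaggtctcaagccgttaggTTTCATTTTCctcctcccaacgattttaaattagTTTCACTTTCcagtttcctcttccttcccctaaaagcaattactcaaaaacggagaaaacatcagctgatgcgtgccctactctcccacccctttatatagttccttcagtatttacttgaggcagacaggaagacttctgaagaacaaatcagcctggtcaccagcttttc
The matches TTTCATTTTC and TTTCACTTTC lie 156 and 122 bases before the start. The element occurred in 18 of 24 antiviral promoters and in 433 of 14228 promoters overall (3.04%). Of the 18, 3 were called higher with shLATS1B and 15 were not.

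**Figure D4:**
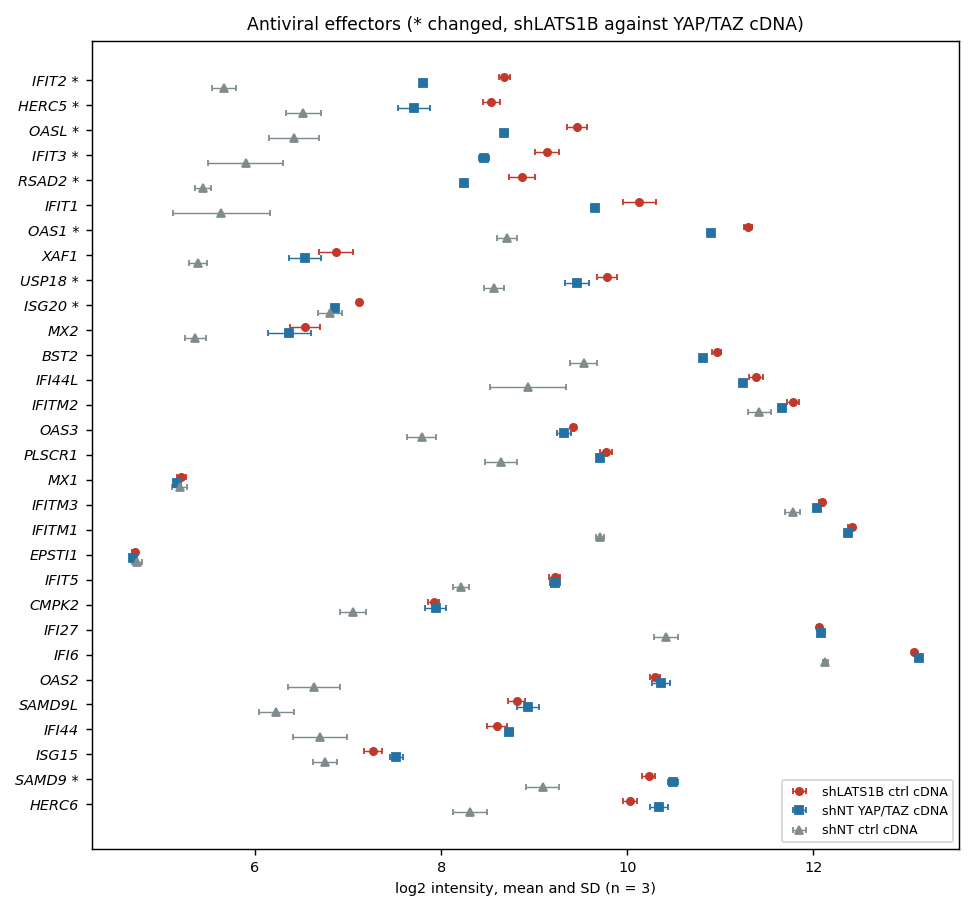
Mean log2 intensity with SD (n = 3, horizontal axis) is plotted for each antiviral effector (rows) in the shLATS1B, YAP/TAZ cDNA and control groups, and an asterisk marks a change between the first 2. IFITM1 and IFI6 nearly coincide in the shLATS1B and YAP/TAZ groups, IFIT2 stands apart by 0.89, and control means lie lower for these genes.

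Of 23 regulators upstream of these effectors, 6 were higher (26.1%) and 0 lower, against 10.7% and 8.12% of all genes. The other 17 did not pass the test, and the list median was 0.09. IRF1, an interferon regulatory factor, stood at 8.5, 8.65 and 8.46 with shLATS1B, against 7.41, 7.49 and 7.57 with YAP/TAZ cDNA, a 2.06-fold difference (1.05 ± 0.092, limma adjusted p = 3.5e-07). STING1, an adaptor of DNA sensing, was 1.58-fold higher, IRF9, the DNA-binding part of the interferon-activated complex, 1.50-fold, and RIGI, an RNA sensor, 1.37-fold. Antigen presentation genes were 4 of 13 higher (30.8%) and 0 lower, each by less than 1.5-fold. Control arrays held 6.87, 6.81 and 6.62 for IRF1, below both groups.

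Mitosis genes differed by small amounts. Of 29 measured, 2 were higher (6.90%) and 9 lower (31.0%), against 10.7% and 8.12% of all genes, with a median of -0.16, and 27 had an interval within 1.5-fold. Their list mean per array was 9.69 to 9.75 with shLATS1B, against 9.85 to 9.89 with YAP/TAZ cDNA. The largest was the kinetochore motor CENPE, at 6.37, 6.19 and 6.19 against 6.70, 7.15 and 6.90, 1.59-fold lower. DNA replication genes were 1 of 29 higher (3.45%) and 4 lower (13.8%), and ribosomal protein genes 1 of 20 higher (5.0%) and 0 lower. The secreted stress factor GDF15 stood at 11.64, 11.68 and 11.65 against 10.25, 10.21 and 10.24, 2.68-fold higher. The p53 list it belongs to had 4 of 20 higher (20.0%) and 3 lower (15.0%). Hypoxia and glycolysis genes were 4 of 22 higher and 4 lower (18.2% each), with the aldolase gene ALDOC 3.86-fold higher and the stress gene NDRG1 2.07-fold lower. Of 23 genes of the integrated stress and unfolded protein responses 3 were higher (13.0%) and 7 lower (30.4%), the cystine transporter gene SLC7A11 by 1.89-fold. Of 23 estrogen response genes 8 were higher (34.8%) and 2 lower (8.7%). IGFBP4, which binds insulin-like growth factors, was 2.95-fold higher and NRIP1, a receptor corepressor, 1.59-fold higher. The 2 lower genes were CA12 and CCND1, with differences of -0.64 and -0.31. GREB1, PGR and TFF1 did not pass the test, with differences of -0.1, -0.01 and -0.02. Over all arrays GREB1 and PGR averaged 4.96 and 4.59, under the dim limit.

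Some markers of leukocytes and endothelium were dim in both groups, whereas both lists also held genes above the dim limit. The mean over all arrays lay above that limit for 9 of 16 leukocyte and 2 of 9 endothelial genes. Among them were the uncalled CSF1R, CD8A and CD79A, at 6.2, 5.77 and 5.67, and the endothelial PECAM1 and CLDN5, at 5.97 and 6.17. The leukocyte genes PTPRC, CD3D and MS4A1 averaged 4.44, 5.13 and 4.48 with shLATS1B and 4.44, 5.16 and 4.49 with YAP/TAZ cDNA. CD14, a receptor for bacterial lipopolysaccharide, stood at 10.79, 10.95 and 10.88 with shLATS1B, against 9.78, 9.58 and 9.65 with YAP/TAZ cDNA. CD68, a lysosomal protein, stood at 10.54, 10.57 and 10.47 against 9.25, 9.29 and 9.21. These 2 were the only leukocyte markers called, CD68 2.42-fold and CD14 2.30-fold higher. They made up 12.5% of the 16 measured, near the 10.7% of all genes called higher. The list mean per array was 5.84 to 5.87 with shLATS1B against 5.70 to 5.74 with YAP/TAZ cDNA. The endothelial markers CDH5 and VWF averaged 5.04 and 4.99 against 5.03 and 5.02, while PECAM1 was 1.54-fold higher. TEK, which averaged a dim 4.94 over all arrays, was called lower, by -0.19. Called higher and lower were thus 11.1% each of the endothelial list, against 10.7% and 8.12% of all genes. The list means were 5.17 to 5.22 against 5.13 to 5.16 for 9 endothelial markers and 5.18 to 5.20 against 5.19 to 5.21 for 7 adipocyte markers, of which 0 changed. The epithelial genes KRT5, KRT18, EPCAM and CDH1 averaged 12.41, 12.47, 11.29 and 10.60 with shLATS1B, and 12.69, 11.82, 10.48 and 10.51 with YAP/TAZ cDNA. In these bulk samples, fewer cells of a type and less RNA per cell cannot be told apart.

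Another 3 comparisons share no array with this one, so the same genes were read in them. The first is shLATS1+2 against ESR1 cDNA, again a LATS hairpin against a cDNA, across the division on the first component. The second is YAP/TAZ plus ESR1 cDNA against control cDNA, with shNT and no LATS hairpin on either side, and the same division crossed. The third is shLATS1+2 against YAP/TAZ plus ESR1 cDNA, a LATS hairpin against cDNAs on 1 side of the division. In turn, these comparisons called 3571 (19.4%), 5414 (29.4%) and 3644 (19.8%) of 18404 genes. The last of these called fewer genes without shLATS1+2 array 3 (2145 called) or without YAP/TAZ plus ESR1 array 2 (2207) or 3 (2323). It shares arrays with each of the others, and all came from 1 fit with a common estimate of the spread.

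Genes that were higher or lower with shLATS1B by at least 1.5-fold were mostly called the same way in the comparison of shLATS1+2 with ESR1 cDNA. There, 395 of the 407 higher genes (97.1%) and 267 of the 286 lower genes (93.4%) were called in the same direction, and 0 and 2 in the opposite one, against 11.4% and 8.04% of all genes called higher and lower. In YAP/TAZ plus ESR1 cDNA against control cDNA, which involves no LATS hairpin, 352 of the 407 (86.5%) and 191 of the 286 (66.8%) were called the same way. The opposite call was made for 7 (1.72%) and 27 (9.44%), against 14.7% of all genes called in each direction. In shLATS1+2 against YAP/TAZ plus ESR1 cDNA, 93 of the 407 (22.9%) and 121 of the 286 (42.3%) were called the same way and 91 (22.4%) and 24 (8.39%) the opposite way, against 9.62% called higher and 10.2% called lower. The median difference of the 407 higher genes was 0.74, 0.76 and -0.01 in these 3 comparisons in turn, and that of the 286 lower genes was -0.74, -0.47 and -0.17. Of all 1967 higher genes, 1432, 1238 and 353 were called higher there, which are 68.5%, 45.9% and 19.9% of the genes called higher in each. Of all 1495 lower genes, 985, 832 and 432 were called lower there, which are 66.6%, 30.7% and 23.1% of the genes called lower in each.

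**Figure D5:**
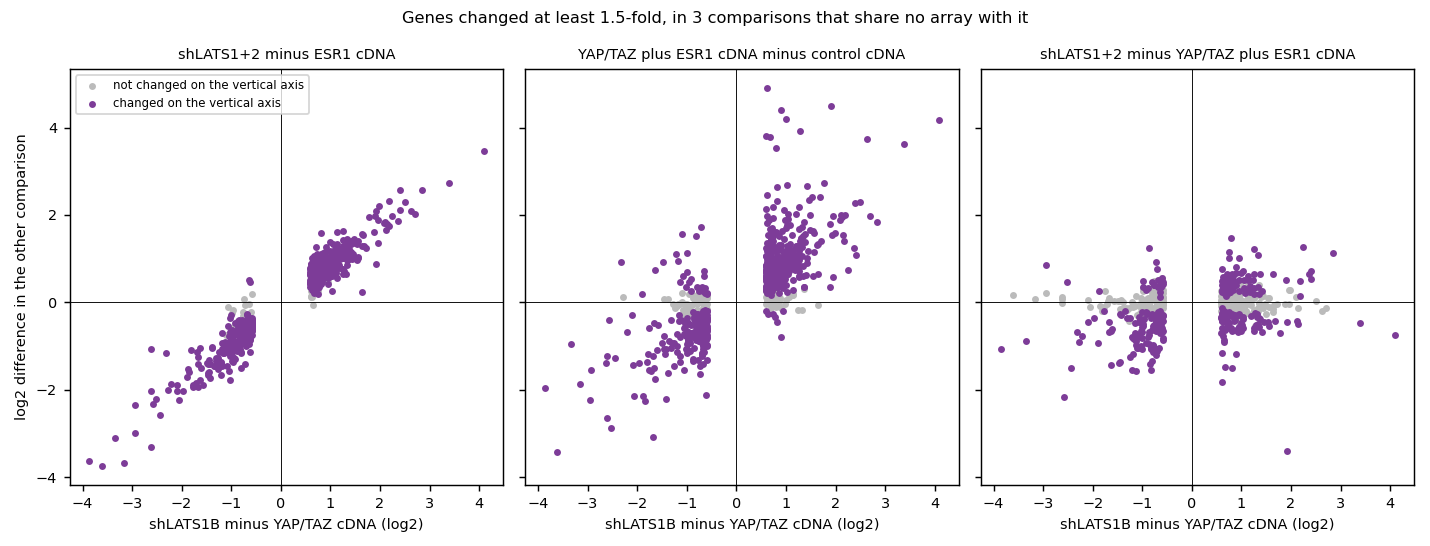
The 693 genes changed at least 1.5-fold are placed by their log2 difference with shLATS1B minus YAP/TAZ cDNA (horizontal) and by their log2 difference in 1 of 3 comparisons that share no array with it (vertical, a panel each). The points mostly keep their sign in the panels for shLATS1+2 against ESR1 cDNA and for YAP/TAZ plus ESR1 against control cDNA, and less so in the panel for shLATS1+2 against YAP/TAZ plus ESR1 cDNA, where the 407 higher genes have a median of -0.01 and the 286 lower genes one of -0.17.

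LATS1 itself parted these comparisons by hairpin. Its difference was -0.99 in shLATS1+2 against ESR1 cDNA and -1.57 in shLATS1+2 against YAP/TAZ plus ESR1 cDNA, and it was 0.47 in YAP/TAZ plus ESR1 against control cDNA. AQP3 did not follow that order, with differences of 2.72 and -0.47 in the comparisons with a LATS hairpin and 3.63 in the one without. CYP24A1 gave 3.46, -0.74 and 4.17 in the same order, and SCNN1G gave -3.74, 0.17 and -3.43. For these genes the arrays with YAP/TAZ plus ESR1 cDNA and no LATS hairpin thus differed from control arrays by about as much as shLATS1B arrays did from YAP/TAZ arrays. Sterol genes were 18 of 22 higher and 0 lower in shLATS1+2 against ESR1 cDNA, 15 higher and 1 lower in YAP/TAZ plus ESR1 against control cDNA, and 2 higher and 2 lower in shLATS1+2 against YAP/TAZ plus ESR1 cDNA. Basal genes gave 1 of 14 higher and 10 lower, 2 and 9, and 1 and 4 in the same comparisons. Over all genes the shares called higher and lower were 11.4% and 8.04%, then 14.7% each, then 9.62% and 10.2%. The sterol counts in shLATS1+2 against YAP/TAZ plus ESR1 cDNA thus lay close to the shares of all genes.

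Some genes were called the same way with shLATS1B and in shLATS1+2 against YAP/TAZ plus ESR1 cDNA, on 1 side of the division. Those named here were picked for that shared direction and for their size with shLATS1B. Of the 407 genes higher by at least 1.5-fold, 93 were called the same way there and 91 the opposite way. Of the 286 lower genes the counts were 121 and 24. Whether the hairpin accounts for the shared direction was not tested. CALB2 was higher by 2.25 with shLATS1B, by 1.98 in shLATS1+2 against ESR1 cDNA and by 1.26 in shLATS1+2 against YAP/TAZ plus ESR1 cDNA. TNFAIP2 gave 2.84, 2.57 and 1.13, and LRIG1 gave 2.41, 2.11 and 0.72. WNT7A, a secreted Wnt ligand, stood at 8.75, 8.75 and 8.67 with shLATS1B, against 6.80, 6.52 and 7.18 with YAP/TAZ cDNA, and its differences were 1.89, 1.98 and 0.51. For each of these rises the shLATS1+2 arrays differed less from the YAP/TAZ plus ESR1 arrays than from the ESR1 arrays. Among the falls CLIC2 differed by -2.16 and LHFPL6 by -1.51 in shLATS1+2 against YAP/TAZ plus ESR1 cDNA. PNLIPRP3 differed by -1.08 there, SAA1 by -0.90, FN1 by -0.89, S100A8 by -0.68 and HSD17B2, a steroid dehydrogenase, by -0.46. In that same comparison CCL20, ANGPTL4 and DNER, a Notch ligand, were called higher, by 0.85, 0.47 and 0.25, although each was lower with shLATS1B. SLC6A14, higher with shLATS1B, was lower there by -3.40, as were SMOC1, a basement membrane protein, by -0.50, the keratin KRT15 by -0.46 and the mucin-like DMBT1 by -0.44.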

How the data were processed

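MCF10A RNA, 100 ng a sample, was measured on 18 Affymetrix whole-transcript arrays in 6 groups of 3. The authors deposited log2 values for 32321 probe sets, from 3.561 to 13.75, made with the R package affy, per the submitters' processing notes, which give no version. For background correction, normalization and probe summary the sources used here name no method. Array medians ranged from 5.494 to 5.619, and centring them changed the balance of directions, as given above. The labels do not say that replicates were separate cultures, so the p-values reflect only sample-to-sample spread, which may be technical, and 3 arrays a group limit the precision.

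Probe sets with 1 symbol in the platform annotation (19158; 1388 had several and 11775 none) were named, with symbols updated for 19128 through RefSeq GRCh38.p14. The brightest probe set was kept for each of 18404 genes (637 had several). All 18 arrays entered 1 limma 3.58.1 fit in R 4.3.3, with a mean per group, 12 residual and 3.94 prior degrees of freedom. The fit was also run on simulated data with independent noise and few changed genes. That setting is unlike these data, so the run gives no error rate for them. Same-numbered arrays of the groups did not deviate together (r = 0.15, -0.06 and 0.02), so numbers were not used as pairs.

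Members and the 26 gene lists (583 genes, 539 measured; the others were not analysed here) were chosen with earlier results of these data known. Named were the 5 targeted or transfected genes, the 12 largest rises and falls with groups apart, up to 5 called and 3 uncalled members a list, and the largest changes shared with, or opposite in, shLATS1+2 against YAP/TAZ plus ESR1 cDNA. Other list members and markers, including SREBF2, are named to complete a count or for a promoter match. Alternatives were only the 6 arrays, other scalings, a brightness filter, the mean of probe sets, a variance trend, a replicate block and single arrays left out. Promoters, from the RefSeq table, covered 14228 genes.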

Additional observations from a re-analysis of the deposited data

How the results depend on the processing

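LATS1 stayed lower with shLATS1B in every fit run, by -1.21 to -1.09 with single arrays left out. The count of 3462 changed genes was 2706 to 2917 with single arrays left out (1568 to 1669 higher, 1138 to 1257 lower), and genes changed at least 1.5-fold were 677 to 726. Fitting only the 6 arrays called 5332 genes, 2486 of them lower. The replicate number as a block called 3286 (1888 higher, 1398 lower) and gave LATS1 an adjusted p of 1.8e-07; arrays 2 and 3 of shLATS1B did not correlate best with their own number. Median centring raised the lower calls in YAP/TAZ plus ESR1 against control cDNA to 4352. Without single arrays, shLATS1+2 against YAP/TAZ plus ESR1 cDNA called 2145 to 3832 genes (990 to 1785 higher, 1155 to 2047 lower), shLATS1+2 against ESR1 cDNA 2849 to 4724 (1611 to 2803, 1184 to 1921) and YAP/TAZ plus ESR1 against control cDNA 4469 to 5522 (2238 to 2746, 2181 to 2776). Under the mean of probe sets ATF4 was 0.06 and RPL13 -0.04, so their directions turned. Leaving out ESR1 array 1 and shLATS1+2 array 3, chosen after seeing the data, called 4392 genes here and 698 at least 1.5-fold. Among the lists, mitosis had 15 lower genes with only the 6 arrays and 5 without shLATS1B array 2, DNA replication had 6 higher and 10 lower with only the 6 arrays, and 1 or 2 lower without any 1 array but YAP/TAZ array 1, and estrogen response had 5 lower under median centring. TGF-beta, BMP and ID genes had 3 higher without YAP/TAZ array 1 or 3 or shLATS1B array 2 or 3. Of 216 named genes, 13 lost their call and 16 gained one in at least 1 alternative. The causes were not tested.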
